A study of Rattus norvegicus with 15 samples.

Results

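The genes described here are 37 genes expressed by microglia and other brain macrophages. The list runs from the homeostatic receptors P2ry12, Cx3cr1 and Gpr34 to complement C1q, phagocytic receptors and lysosomal genes. It also holds perivascular macrophage receptors and the transcription factors Spi1 and Irf8. The list was chosen with earlier results of these data known, so its shares set beside those of all genes are descriptions and not tests. Each gene was read from the probe set that carries its gene symbol alone, and all 37 were measured, among 14506 genes on the array. No filter on low values was applied, and every member had 1 probe set. The tissue was the inferior colliculus (IC), the auditory midbrain nucleus where audiogenic seizures start, from male rats 12 weeks old. WAR S were 5 arrays of the Wistar audiogenic rat (WAR), a strain bred for sound-triggered seizures, exposed to a loud sound and sampled 60 min after the seizure. Wistar S were 2 arrays of Wistar albino rats given the same sound. WAR N were 4 arrays of naïve WAR and Wistar N 4 arrays of naïve Wistar albino rats, with no acoustic stimulation. Per the labels WAR came from a breeding colony at a medical school and Wistar from a commercial breeder, so strain and source of the animals cannot be told apart, and no gene was manipulated in any group.

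Microglia are the resident macrophages of brain tissue. They arise from yolk sac progenitors, depend on the receptor Csf1r and the transcription factors Spi1 and Irf8, and in their resting state carry purinergic and chemokine receptors through which they sense nucleotides and neuronal signals. When they take up debris or synapses they use complement tags, Fc receptors and the Trem2 and Tyrobp pair. Perivascular macrophages lie along vessels and carry Mrc1 and Cd163. In bulk tissue, fewer cells of a type and less RNA per cell cannot be told apart.

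Levels are log2 values after robust multi-array averaging (RMA), so that a difference of 1 is a 2-fold change. Strain differences are log2 fold changes, WAR minus Wistar, with standard error (SE), from a limma fit over all 15 arrays, and a gene was called where its p-value adjusted over all genes was at most 0.05. Between 2675 and 3286 probe sets were identical on any pair of stimulated arrays, against 2 to 13 on any pair of naïve arrays and 0 between stimulated and naïve arrays. The 2 kinds of array were therefore taken as normalized apart, and WAR S was compared only with Wistar S and WAR N only with Wistar N. Of the members, 16 had 2 or more identical values among the 7 stimulated arrays. Among naïve arrays, the first principal component (62.8% of the variance) set the WAR N arrays, at -22.7 to -12.7, and Wistar N 1, at -23.2, apart from Wistar N 2, 3 and 4, at 32.0, 32.4 and 36.9. On this component Wistar N 1 thus lay with the WAR N arrays, against its label. The set of running numbers in the sample descriptions did not follow this split, with Wistar N 2 and 3 in 1 set and, by an unclear label, Wistar N 4 in the other with Wistar N 1. Whether a label is wrong or some of these arrays form a batch was not tested, and either would change what the naïve strain differences below compare. The strain difference in naïve arrays rested largely on 3 of the 4 Wistar N arrays, and it is also given against Wistar N 1 alone, as a fit in which that lone array is assumed to vary like the other groups. The median residual SD over genes was 0.0940 in stimulated and 0.184 in naïve arrays, so a shared spread is strict for the first and lenient for the second. Calls from a fit of each comparison's own arrays are therefore set beside the main ones. The lists of neuron, astrocyte and oligodendrocyte markers had mean levels of 10.73 to 11.71 on every array, and those of lymphocyte and of neutrophil and monocyte markers 5.46 to 5.81.

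In stimulated animals WAR S exceeded Wistar S in 2 of the 37 members (5.41% of members, against 0.214% of all genes called higher), and 0 were lower. They were P2ry12, a receptor for ADP that steers microglial processes, and Lair1, an inhibitory receptor for collagen and C1q. In naïve animals WAR N exceeded Wistar N in 14 members (37.8% of members, against 11.6% of all genes called higher), and 0 were lower (9.38% of all genes). These were P2ry12, Gpr34, P2ry13, Tmem119, Selplg, C1qb, Tyrobp, Trem2, Fcer1g, Fcgr2b, Lyz2, Tlr7, Csf3r and Lair1. P2ry12 and Lair1 were thus the 2 members called higher in WAR both with and without sound.

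Over all 37 members the median log2 fold change was 0.10 in WAR S over Wistar S, against 0.0103 over all genes, and 27 estimates were positive and 10 negative. In WAR N over Wistar N it was 0.257, against 0.0228 over all genes, with 30 positive and 7 negative. On their own arrays the calls were 3 in the stimulated comparison (P2ry12, Lair1 and Fcer1g; background 1.19% of all genes higher) and 11 in the naïve comparison, all among the 14 (background 3.24%). Gpr34, Lyz2 and Csf3r were not called on the naïve arrays alone. Against Wistar N 1 alone 6 members were higher and 2 lower (background 4.40% higher and 7.16% lower), and 5 of the 14 calls held. Without Wistar N 1, 17 members were higher and 3 lower (background 22.6% higher and 18.5% lower). Endothelial markers moved in the same direction in these arrays. In WAR S 5 of 19 were higher (median 0.717), against 0.214% of all genes. In WAR N 10 of 19 were higher (median 0.704, and 0.147 against Wistar N 1 alone), against 11.6% of all genes. Astrocyte markers moved the other way, with 5 of 12 lower in WAR N (median -0.399, and -0.269 against Wistar N 1 alone). In WAR S 0 of the 12 were called (median -0.253). Neuron markers had 5 of 12 lower in WAR N (median -0.0116, and -0.228 against Wistar N 1 alone). Over all genes 9.38% were lower in WAR N. The part of these cell types in the members' differences was not tested.

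**Figure D1:**
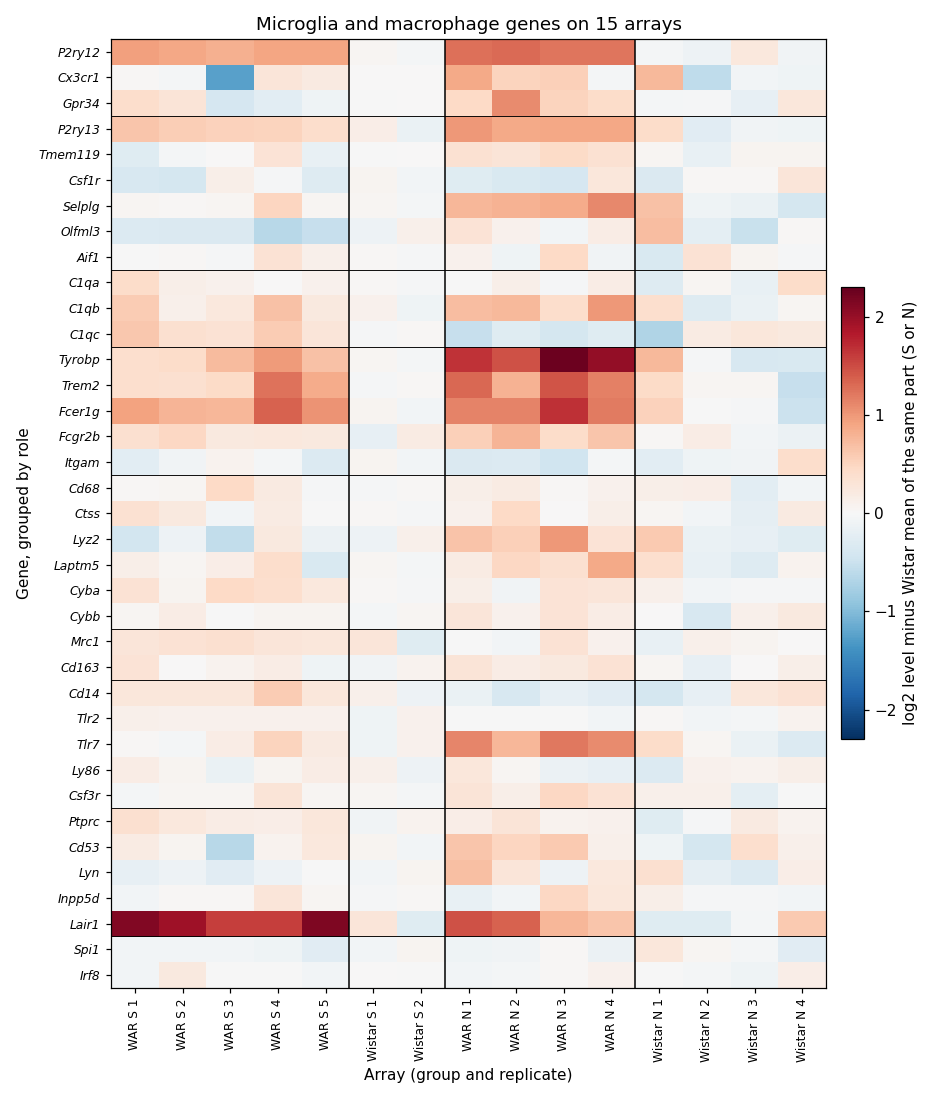
Log2 level of each of the 37 genes (rows, grouped by role) on each of the 15 arrays (columns), minus the mean of the Wistar arrays of the same kind, stimulated (S) or naïve (N). P2ry12 and Lair1 are above 0 on all 5 WAR S and all 4 WAR N arrays, and Tyrobp, Trem2, Fcer1g and Tlr7 are higher on every WAR N array than on every Wistar N array.

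P2ry12 had the lowest adjusted p of the 37 members in both comparisons. Its levels in stimulated animals were 10.08, 10.03, 9.95, 10.04 and 10.05 in WAR S, against 9.19 and 9.09 in Wistar S. In naïve animals they were 9.98, 10.02, 9.95 and 9.94 in WAR N, against 8.67, 8.59, 8.96 and 8.63 in Wistar N. Every WAR array was above every Wistar array of its kind, and the WAR arrays lay within a narrow band. The log2 fold change was 0.89 (SE 0.090, adjusted p = 0.000486), or 1.86-fold, in stimulated arrays and 1.26 (SE 0.076, adjusted p = 1.89e-06), or 2.39-fold, in naïve arrays. An exact two-sided permutation test over samples gave 0.0476 and 0.0286, the smallest values that 5 against 2 and 4 against 4 arrays allow. Against Wistar N 1 alone the naïve difference was 1.30 (SE 0.077), so that P2ry12 did not turn on the 3 Wistar N arrays that stood apart.

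Cx3cr1, the receptor through which microglia sense neuronal fractalkine, was not called in either comparison. Its levels were 9.64, 9.56, 8.36, 9.89 and 9.82 in WAR S, against 9.61 and 9.61 in Wistar S, and the low array, WAR S 3, lay more than 1 log2 unit below the other 4. In naïve animals they were 9.72, 9.37, 9.40 and 8.80 in WAR N, against 9.59, 8.27, 8.79 and 8.76 in Wistar N, and the groups overlapped. The log2 fold changes were -0.15 (95% confidence interval -0.97 to 0.67) in stimulated and 0.47 (-0.23 to 1.16) in naïve arrays, and -0.27 against Wistar N 1 alone. These intervals leave room for differences of either sign.

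Gpr34, a receptor for lysophosphatidylserine, differed in naïve animals. Its levels were 8.02, 8.64, 8.06 and 7.98 in WAR N, against 7.51, 7.52, 7.37 and 7.82 in Wistar N, with no overlap. The log2 fold change was 0.62 (SE 0.18, adjusted p = 0.0271), and 0.67 (SE 0.30, adjusted p = 0.176) against Wistar N 1 alone. In stimulated animals it was at 8.68, 8.56, 7.88, 8.03 and 8.18 in WAR S, against 8.26 and 8.28 in Wistar S. There the Wistar S arrays fell between the WAR S arrays, and the interval of the difference ran from -0.46 to 0.46. The 3 homeostatic receptors of the list thus did not move as a block in stimulated animals, where P2ry12 alone was called.

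**Figure D2:**
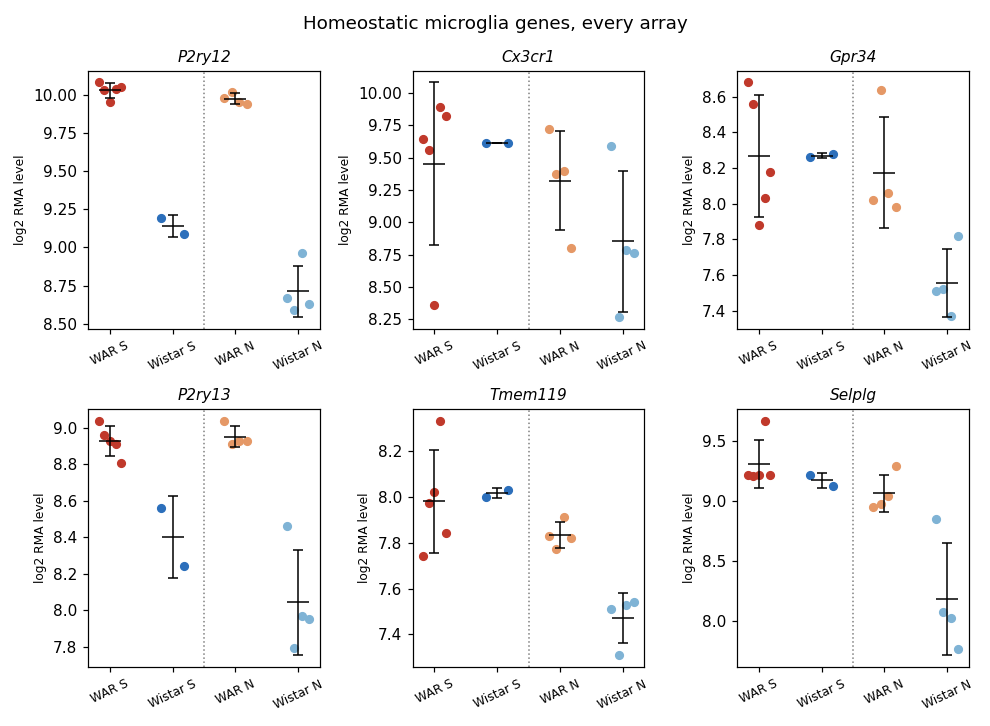
Log2 RMA level of 6 homeostatic microglia genes on every array, by group, with the group mean and SD; within a group points run from replicate 1 on the left. P2ry12 and P2ry13 separate WAR from Wistar in both kinds of animal, Gpr34, Tmem119 and Selplg in naïve animals, and Cx3cr1 in neither.

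P2ry13, a second ADP receptor and the neighbour of P2ry12 on chromosome 2, was at 9.04, 8.96, 8.93, 8.91 and 8.81 in WAR S, against 8.56 and 8.24 in Wistar S. In naïve animals it was at 9.04, 8.91, 8.93 and 8.93 in WAR N, against 8.46, 7.79, 7.97 and 7.95 in Wistar N. WAR was above Wistar on every array of both kinds. The difference of 0.53 (SE 0.14) in stimulated arrays did not pass the threshold (adjusted p = 0.167), and on the stimulated arrays alone it fell just short of it. In naïve arrays it was 0.91 (SE 0.12, adjusted p = 0.000481), and 0.50 (adjusted p = 0.0202) against Wistar N 1 alone. Of the other genes measured around the pair, Med12l, which overlaps P2ry12 in the rat annotation, was higher in WAR N (0.55, adjusted p = 0.00254) and at 0.23 (adjusted p = 0.826) in stimulated arrays. P2ry14, a related receptor for nucleotide sugars, had differences of 0.29 and 0.18 in stimulated and naïve arrays, neither past the threshold.

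Tmem119, a surface protein used to tell microglia from other macrophages, was at 7.83, 7.77, 7.91 and 7.82 in WAR N, against 7.51, 7.31, 7.53 and 7.54 in Wistar N. The groups did not overlap, with a log2 fold change of 0.36 (SE 0.10, adjusted p = 0.0247). Selplg, the P-selectin ligand of white blood cells and a gene of resting microglia, was at 8.95, 8.98, 9.04 and 9.29 in WAR N, against 8.85, 8.08, 8.03 and 7.77 in Wistar N. Its difference was 0.88 (SE 0.18, adjusted p = 0.00494), but 0.22 (adjusted p = 0.467) against Wistar N 1 alone, the Wistar N array nearest to WAR N. In stimulated animals the differences were -0.04 for Tmem119 and 0.13 for Selplg, and both overlapped between strains.

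The other 3 surface genes of this class were called in neither comparison. Csf1r, the receptor on which microglia depend for survival, had differences of -0.19 in stimulated and -0.19 in naïve arrays. Aif1, which encodes the calcium-binding protein Iba1 used to stain microglia, had 0.08 and 0.09. Olfml3, a secreted protein of resting microglia, was at 7.30, 7.29, 7.29, 6.97 and 7.08 in WAR S, against 7.50 and 7.73 in Wistar S. It was the 1 member below Wistar S on every WAR S array, with a difference of -0.42 that did not pass the threshold (adjusted p = 0.894). In naïve arrays the difference of Olfml3 was 0.13, but -0.58 (adjusted p = 0.0382) against Wistar N 1 alone and 0.37 (adjusted p = 0.0315) without that array.

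Lair1 had the largest strain difference among the members in stimulated animals. It was at 8.88, 8.69, 8.33, 8.34 and 8.89 in WAR S, against 7.02 and 6.47 in Wistar S. All WAR S arrays were more than 1 log2 unit above both Wistar S arrays. The log2 fold change was 1.88 (SE 0.28, adjusted p = 0.00863), or 3.68-fold, with an exact two-sided permutation p of 0.0476. The call needed Wistar S 2, the lower of the 2 Wistar S arrays: without it the difference was 1.61 with adjusted p = 0.350. In naïve animals Lair1 was at 8.68, 8.58, 7.98 and 7.86 in WAR N, against 6.95, 6.94, 7.18 and 7.82 in Wistar N. The groups met closely at 1 end, WAR N 4 against Wistar N 4, and the difference was 1.06 (SE 0.23, adjusted p = 0.00686), and 1.33 (adjusted p = 0.0281) against Wistar N 1 alone. Ttyh1, which overlaps Lair1 in the rat annotation, had differences of -0.18 and 0.15 in stimulated and naïve arrays, neither called. Leng8, 2 genes away, was at 0.16 in stimulated arrays and higher by 0.97 (adjusted p = 0.00875) in WAR N. On the same side Cdc42ep5 (0.56, adjusted p = 0.00433) and Lilra5 (0.39, adjusted p = 0.0248) were also higher in WAR N, with 0.03 and 0.07 in stimulated arrays. Vom2r29, Vom2r30, Vom2r31 and Vom1r40, on the other side, were not called in either comparison. Over all genes 11.6% were higher in WAR N, and whether the region shares a difference was not tested.

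The remaining genes of leukocyte signaling and inhibition did not pass the threshold. Ptprc, the phosphatase CD45 of all white blood cells, was above Wistar S on every WAR S array (0.24, adjusted p = 0.748). It had 0.16 in naïve arrays, and 0.43 against Wistar N 1 alone. Cd53, a tetraspanin, had -0.02 and 0.47, Lyn, a Src-family kinase, -0.13 and 0.27, and Inpp5d, the lipid phosphatase SHIP1, 0.06 and 0.13. On WAR S 3 Cd53 was at 8.05, against 8.76 to 8.94 on the other WAR S arrays, the same array that was low for Cx3cr1.

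Promoter sequence was available for 26 of the 37 members, from 250 bases before to 50 bases after the start of the gene (RefSeq, assembly GRCr8). P2ry12, Tyrobp, Fcer1g, Selplg and Tmem119 were among the 11 with none. The core motif GAGGAA of PU.1, the factor encoded by Spi1 and a main regulator of macrophage genes, was searched on both strands, and no other motif was searched. It was in 18 of the 26 promoters (69.2%), against 9239 of 33469 promoters of the same length (27.6%). The 3 promoters shown are those of the members called in stimulated animals and of the homeostatic receptors that the table holds, with GAGGAA or its reverse complement TTCCTC in capitals. Lair1 lies at chr1:79229661-79229960 on the plus strand and has 2 matches, Gpr34 at chrX:11785787-11786086 on the minus strand with 1, and Cx3cr1 at chr8:128677017-128677316 on the minus strand with 0.
Lair1: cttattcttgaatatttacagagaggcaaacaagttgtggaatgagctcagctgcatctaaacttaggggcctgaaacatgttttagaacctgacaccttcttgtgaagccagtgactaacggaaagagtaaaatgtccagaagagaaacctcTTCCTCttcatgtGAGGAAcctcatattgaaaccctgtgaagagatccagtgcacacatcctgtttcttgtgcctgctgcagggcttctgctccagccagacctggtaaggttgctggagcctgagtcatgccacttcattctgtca
Gpr34: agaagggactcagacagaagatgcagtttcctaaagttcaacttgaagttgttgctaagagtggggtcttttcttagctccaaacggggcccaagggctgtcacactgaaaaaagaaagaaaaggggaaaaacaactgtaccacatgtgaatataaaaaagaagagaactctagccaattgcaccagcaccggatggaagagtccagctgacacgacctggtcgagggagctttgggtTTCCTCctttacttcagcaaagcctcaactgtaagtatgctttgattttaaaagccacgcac
Cx3cr1: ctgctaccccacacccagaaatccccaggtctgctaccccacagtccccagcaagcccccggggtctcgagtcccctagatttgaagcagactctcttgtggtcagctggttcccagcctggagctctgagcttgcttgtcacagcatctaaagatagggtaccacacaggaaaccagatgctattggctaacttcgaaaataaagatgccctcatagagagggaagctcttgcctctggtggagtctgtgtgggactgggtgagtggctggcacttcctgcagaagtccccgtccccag
A match describes the letters only, and binding was not measured. Of the members called higher in WAR N 8 had a promoter in the table, and 7 of these held the motif (C1qb, Csf3r, Gpr34, Lair1, Lyz2, Tlr7 and Trem2), while P2ry13 had 0 matches. Of the 18 members with a promoter that were not called, 11 held it, and the difference between these shares was not tested.

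Of the phagocytic receptors and adaptors 4 of 5 were higher in WAR N, with a median difference of 1.18 over the 5. Tyrobp, the adaptor DAP12 through which Trem2 signals, was at 8.57, 8.36, 9.16 and 8.93 in WAR N, against 7.64, 6.87, 6.54 and 6.55 in Wistar N. Its log2 fold change was 1.85 (SE 0.23, adjusted p = 0.000380), or 3.61-fold, and 1.11 (adjusted p = 0.0245) against Wistar N 1 alone. In stimulated animals Tyrobp was at 8.72, 8.75, 9.06, 9.30 and 8.99 in WAR S, against 8.37 and 8.28 in Wistar S. These groups did not overlap either, but the difference of 0.64 (SE 0.27) did not pass the threshold (adjusted p = 0.630).

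Trem2, a receptor for lipids and lipoproteins on microglia, was at 8.23, 7.71, 8.36 and 8.06 in WAR N, against 7.35, 6.96, 6.95 and 6.37 in Wistar N. The difference was 1.18 (SE 0.22, adjusted p = 0.00300), and 0.74 (adjusted p = 0.146) against Wistar N 1 alone. In stimulated animals it was at 7.84, 7.83, 7.90, 8.70 and 8.30 in WAR S, against 7.43 and 7.48 in Wistar S (0.66, adjusted p = 0.541). The receptor and its adaptor were thus apart between strains on every array of both kinds, with calls in naïve animals.

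Fcer1g, the signaling chain shared by Fc receptors, was at 9.96, 9.82, 9.80, 10.39 and 10.06 in WAR S, against 9.10 and 8.96 in Wistar S. The difference of 0.97 (SE 0.23) missed the threshold in the fit over all arrays (adjusted p = 0.0974) and passed it on the stimulated arrays alone (adjusted p = 0.0443). In naïve animals it was at 9.91, 9.91, 10.45 and 9.97 in WAR N, against 9.30, 8.77, 8.75 and 8.27 in Wistar N. There it was called at 1.29 (SE 0.19, adjusted p = 0.00107), and against Wistar N 1 alone it was 0.76 (adjusted p = 0.0571).

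Fcgr2b, the inhibitory receptor for IgG, was at 7.42, 7.66, 7.30 and 7.52 in WAR N, against 6.90, 7.04, 6.82 and 6.75 in Wistar N. Its difference of 0.60 (SE 0.10, adjusted p = 0.00180) was 0.57 (adjusted p = 0.0360) against Wistar N 1 alone, nearly the same size. In stimulated arrays it was 0.31 (adjusted p = 0.504). Itgam, the integrin chain CD11b that binds complement fragment iC3b, had -0.12 in stimulated and -0.28 in naïve arrays, and overlapped in both. Its naïve difference was -0.37 (adjusted p = 0.0397) without Wistar N 1 and -0.04 against that array alone.

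**Figure D3:**
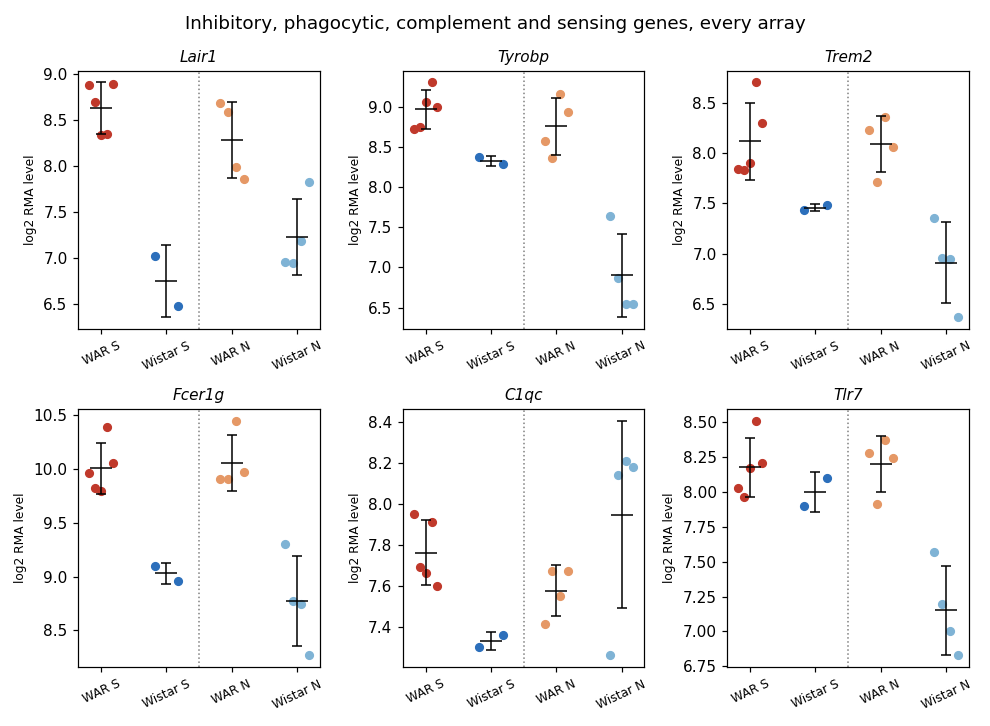
Log2 RMA level of Lair1, Tyrobp, Trem2, Fcer1g, C1qc and Tlr7 on every array, by group, with the group mean and SD; within a group points run from replicate 1 on the left. Wistar N 1 is the highest Wistar N array for Tyrobp, Trem2, Fcer1g and Tlr7 and the lowest for C1qc.

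The 3 chains of complement C1q, which tags synapses and debris for uptake and is made in the brain mainly by microglia, did not move together in naïve animals. C1qb was at 8.57, 8.61, 8.27 and 8.87 in WAR N, against 8.26, 7.57, 7.72 and 7.92 in Wistar N, and was called at 0.71 (SE 0.16, adjusted p = 0.00823), though at 0.32 (adjusted p = 0.404) against Wistar N 1 alone. C1qc was at 7.41, 7.67, 7.55 and 7.67 in WAR N, against 7.26, 8.14, 8.21 and 8.18 in Wistar N. Every WAR N array lay below Wistar N 2, 3 and 4 and above Wistar N 1, and the difference was -0.37 (adjusted p = 0.141) over all 4 Wistar N arrays, -0.60 (adjusted p = 0.000147) without Wistar N 1 and 0.31 against it alone. C1qa had 0.06 in naïve arrays.

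In stimulated animals the C1q chains had positive differences, none of them called. C1qc was at 7.95, 7.69, 7.66, 7.91 and 7.60 in WAR S, against 7.30 and 7.36 in Wistar S (0.43, adjusted p = 0.745). C1qb had 0.36 (adjusted p = 0.861) and, like C1qc, was above Wistar S on every WAR S array. C1qa had 0.15 and overlapped.

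Among lysosomal and oxidase genes 1 of 6 was called. Lyz2, the macrophage lysozyme, was at 8.40, 8.29, 8.75 and 8.06 in WAR N, against 8.36, 7.59, 7.57 and 7.48 in Wistar N. Its groups overlapped, the difference was 0.62 (SE 0.21, adjusted p = 0.0474), and against Wistar N 1 alone it was 0.01. Laptm5, a lysosomal membrane protein, had 0.47 (adjusted p = 0.0722) in naïve arrays. Cd68, a lysosomal glycoprotein, had 0.14 in stimulated and 0.11 in naïve arrays, and Ctss, the protease cathepsin S, 0.14 and 0.17. Cyba and Cybb, the 2 membrane chains of the phagocyte NADPH oxidase, had 0.30 and 0.07 in stimulated and 0.16 and 0.21 in naïve arrays, and Cyba was above Wistar S on every WAR S array (adjusted p = 0.534). In stimulated arrays Lyz2 had -0.20 and Laptm5 0.08.

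Neither perivascular macrophage receptor was called. Mrc1, the mannose receptor, had 0.30 (adjusted p = 0.687) in stimulated and 0.09 in naïve arrays. Cd163, the scavenger receptor for haptoglobin and hemoglobin, had 0.09 and 0.26 (adjusted p = 0.0646), and was above Wistar N on every WAR N array. Of 10 other perivascular macrophage genes, 1 was higher (Folr2, 0.38, adjusted p = 0.0118) and 1 lower (Cd36, -0.26, adjusted p = 0.0117) in WAR N. Over all genes 11.6% were higher and 9.38% lower there, so these counts were near the background. In stimulated arrays 0 of the 10 were called. Folr2 encodes a folate receptor of macrophages and Cd36 a scavenger receptor that endothelial cells also carry.

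Of the pattern recognition and cytokine receptors, 2 of 5 were called in naïve animals. Tlr7, an endosomal sensor of single-stranded RNA, was at 8.28, 7.91, 8.37 and 8.24 in WAR N, against 7.57, 7.20, 7.0 and 6.83 in Wistar N. Its difference was 1.05 (SE 0.16, adjusted p = 0.00104), or 2.08-fold, and 0.63 (adjusted p = 0.0645) against Wistar N 1 alone. In stimulated animals Tlr7 was at 8.03, 7.96, 8.17, 8.51 and 8.21 in WAR S, against 7.90 and 8.10 in Wistar S, which overlapped (0.18). Csf3r, the receptor for granulocyte colony-stimulating factor, was at 6.90, 6.74, 7.07 and 6.94 in WAR N, against 6.71, 6.72, 6.38 and 6.59 in Wistar N. The groups lay next to each other without overlap, and the difference was 0.31 (adjusted p = 0.0352), or 0.08 in stimulated arrays.

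Cd14, the coreceptor for bacterial lipopolysaccharide, had 0.32 in stimulated and -0.24 in naïve arrays. Its naïve difference was -0.38 (adjusted p = 0.0224) without Wistar N 1 and 0.17 against that array alone. Tlr2, a receptor for bacterial lipoproteins, had 0.10 and -0.02, and Ly86, the secreted partner MD-1 of a Toll-like receptor relative, 0.07 and -0.01. Values of these genes were often tied among stimulated arrays: Cd14 was at 6.83 on 4 of the 5 WAR S arrays, and Tlr2 had the same value on 5 of the 7 stimulated arrays.

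The transcription factors were close to 0 in both comparisons. Spi1 had -0.12 (95% confidence interval -0.35 to 0.12) in stimulated and -0.07 (-0.27 to 0.13) in naïve arrays. Irf8 had 0.02 (-0.18 to 0.21) and 0.00 (-0.16 to 0.17). Against Wistar N 1 alone Spi1 was lower (-0.33, adjusted p = 0.0494) and Irf8 was at 0.01.

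**Figure D4:**
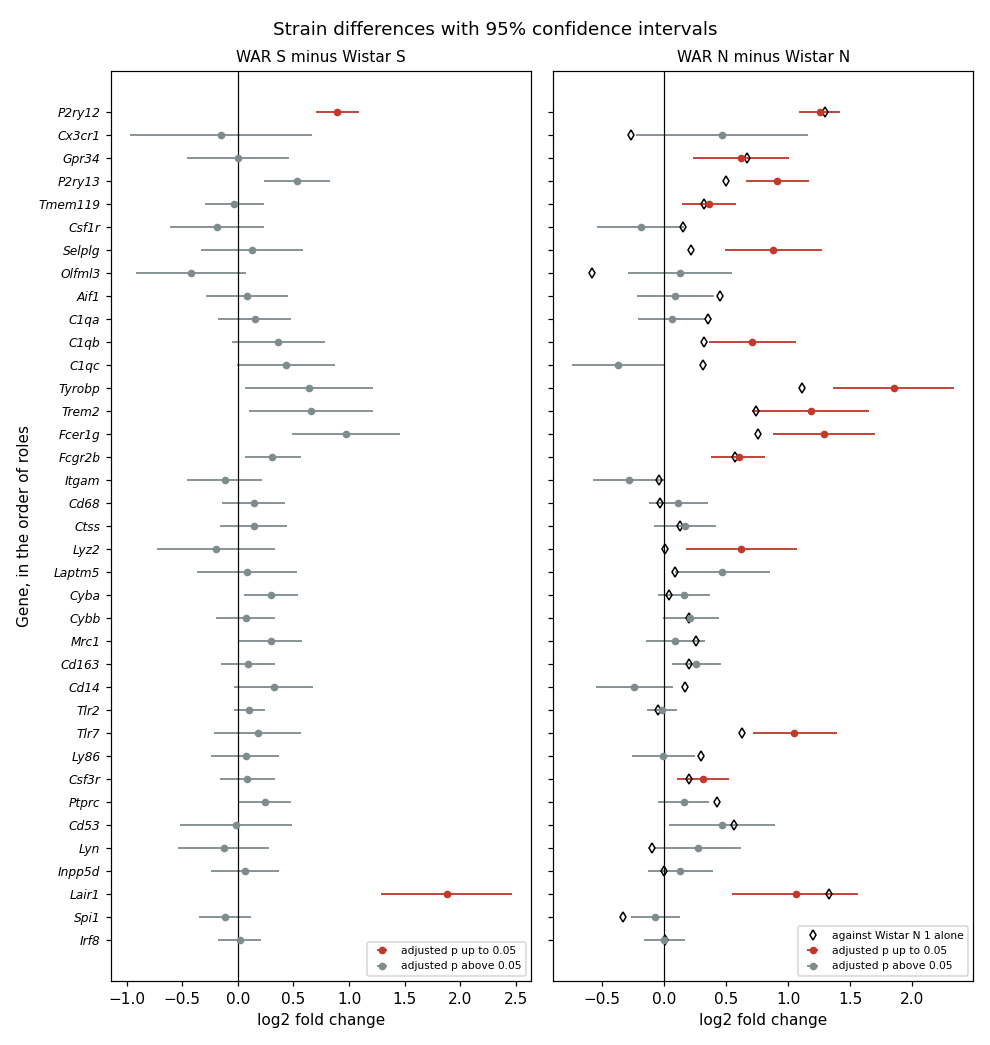
Log2 fold change of each gene with its 95% confidence interval from the fit over 15 arrays, in stimulated (left) and naïve (right) animals; red marks adjusted p up to 0.05, and open diamonds in the right panel show the difference against Wistar N 1 alone. In the stimulated panel 2 genes are red and in the naïve panel 14, and the diamonds of P2ry12, Gpr34, Tmem119, Trem2, Fcgr2b, Csf3r and Lair1 lie inside their intervals while those of the other 7 called genes lie below.

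Counted without a model, 12 members were higher on every WAR S array than on both Wistar S arrays (32.4%, against 12.4% of all genes). Olfml3 was the 1 member that was lower. The share of all genes lower on every array was not counted, here or in naïve arrays, so the lower counts have no background. In naïve arrays 14 were higher on every WAR N array than on every Wistar N array (37.8%, against 7.93% of all genes) and 0 were lower. These 14 were not exactly the 14 called, since Lyz2 overlapped and Cd163 was apart but not called. Of the 14 called, 8 had Wistar N 1 as the highest Wistar N array.

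By role, the mean deviation of the 3 homeostatic receptors from the Wistar mean was 0.46, 0.38, -0.27, 0.32 and 0.34 on the WAR S arrays. The low value on WAR S 3 was that of Cx3cr1 and Gpr34. On the WAR S arrays P2ry12 was at 0.81 to 0.94, against -1.24 to 0.29 for Cx3cr1 and -0.38 to 0.42 for Gpr34. The positive means thus came mainly from P2ry12, and the median difference over the 3 receptors was -0.000323. Phagocytic genes were at 0.37, 0.40, 0.45, 0.76 and 0.49 and C1q at 0.54, 0.20, 0.22, 0.42 and 0.20 on the same arrays, while the perivascular receptors were at 0.07 to 0.29. On WAR N arrays the homeostatic receptors were at 0.87, 0.97, 0.76 and 0.53 and the phagocytic genes at 0.87, 0.77, 1.07 and 0.99. Both classes were above all Wistar N arrays, which ranged from -0.25 to 0.21 and from -0.22 to 0.30. C1q, at -0.01 to 0.30, and the perivascular receptors, at 0.05 to 0.28, overlapped with Wistar N, at -0.20 to 0.23 and -0.06 to 0.07. The median difference over the 34 members other than the homeostatic receptors was 0.115 in stimulated and 0.193 in naïve arrays.

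**Figure D5:**
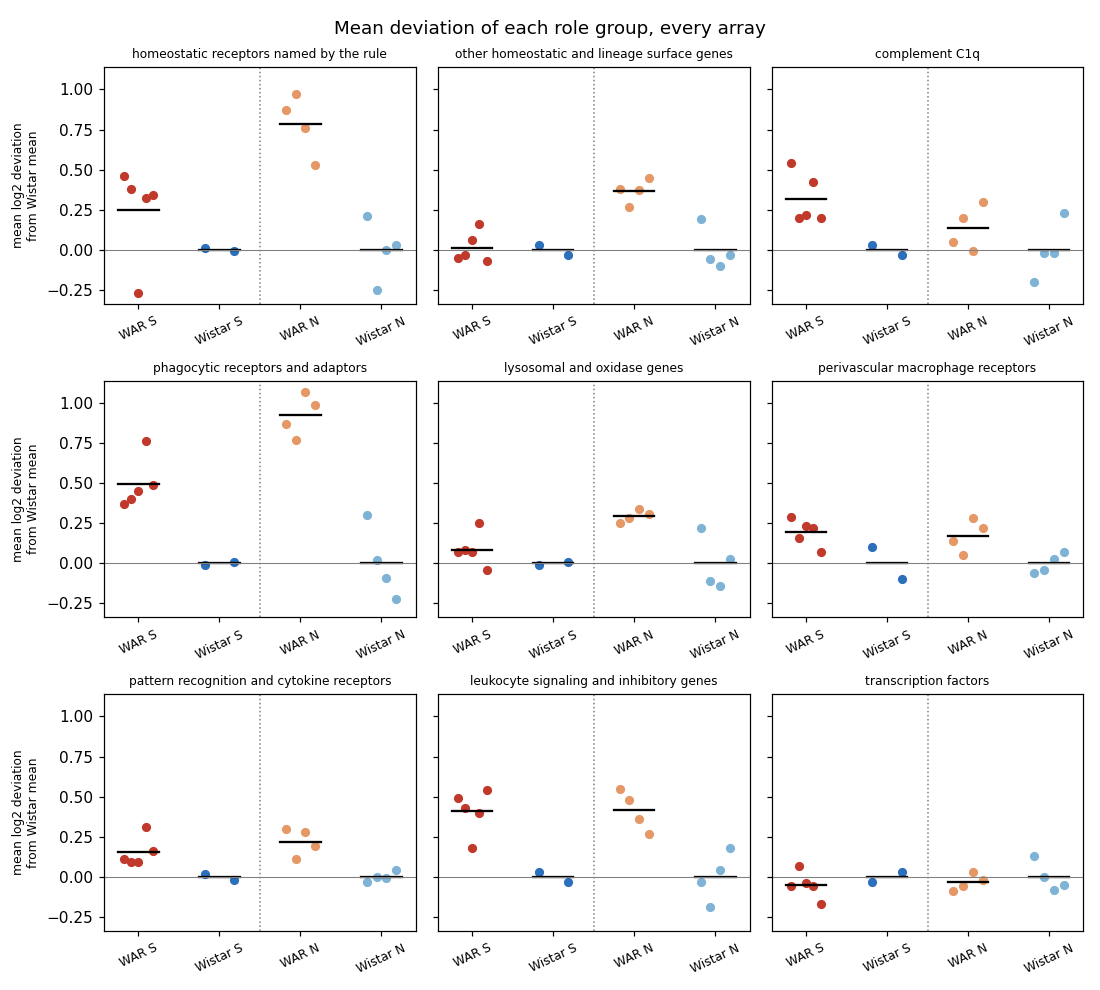
Mean over the genes of each role of the log2 deviation from the Wistar mean of the same kind of animal, on every array; bars are group means and, within a group, points run from replicate 1 on the left. The mean of phagocytic genes stands above Wistar on all WAR arrays. That of the homeostatic receptors does so on all but WAR S 3, in WAR S mainly through P2ry12. The transcription factors lie within 0.17 of 0.

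Whether the strain difference itself differed between stimulated and naïve animals was tested as an interaction, stimulated minus naïve, within the same fit. None of the 37 members passed (0.103% of all genes did, in either direction). An unadjusted p under 0.05 was found for 10 members, and for 2171 of all 14506 genes. Of the 37 estimates 25 were negative. The lowest adjusted p was that of Tlr7 (-0.88, SE 0.24, adjusted p = 0.131), followed by Tyrobp (-1.21, SE 0.36, adjusted p = 0.148). C1qc (0.81, adjusted p = 0.190) and Lair1 (0.83, adjusted p = 0.302) had positive estimates. A strain difference called in naïve and not in stimulated animals was therefore not shown to differ between them. Without Wistar N 1, 8 of the 37 members passed this test, as did 20.4% of all genes, and with Wistar N 1 as the only naïve Wistar array 1 did, P2ry12 (-0.41, adjusted p = 0.0403), as did 3.66% of all genes. Both counts were near the background.

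Other genes of the same cells were read from lists that do not share the members. Of 34 other microglia genes 1 was called in stimulated animals, Slc2a5, the fructose transporter of microglia, which was higher in WAR S by 0.88 (SE 0.16, adjusted p = 0.0216). In naïve animals 4 were higher and 6 lower, with a median of 0.0987, where 11.6% of all genes were higher and 9.38% lower. Lcp1, the actin-bundling plastin of white blood cells (0.97), and Cst3, the protease inhibitor cystatin C (0.38), were higher in WAR N, and the integrin chains Itga6 (-0.44) and Itgb2 (-0.33) were lower. The count of 4 of 34 higher was near the background, while that of 6 of 34 lower was above the 9.38% of all genes. Against Wistar N 1 alone the median was 0.0212.

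Among 11 genes listed as ligands and counter-receptors of microglia 3 were lower in WAR N (9.38% of all genes were) and 0 higher. Their median was -0.304. Cx3cl1, the neuronal ligand fractalkine of Cx3cr1, had a difference of -0.81 (SE 0.23, adjusted p = 0.0248), Il34, a ligand of Csf1r made by neurons, one of -0.56 (adjusted p = 0.00145), and Sirpa, the receptor for CD47, one of -0.66 (adjusted p = 0.00113). In the same arrays 5 of 12 neuron markers were lower and 0 higher (median -0.0116, and -0.228 against Wistar N 1 alone). Syp (-0.53), Gad1 (-0.83), Slc17a6 (-0.62) and Eno2 (-0.38) were among those lower. The part of neuron content in these differences was not tested. In stimulated animals 0 of the 11 were called and the median was 0.0393. The median against Wistar N 1 alone was -0.239.

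Of 15 genes of activated microglia 4 were lower in WAR N (against 9.38% of all genes) and 0 higher: Timp2 (-0.64), the cathepsins Ctsd (-0.45) and Ctsb (-0.36) and the receptor kinase Axl (-0.35). The median was -0.156, and 0.000839 against Wistar N 1 alone. Of 15 genes listed under early cytokines and chemokines 4 were higher (against 11.6% of all genes) and 0 lower (9.38%). They were Cd83 (0.43), which is a surface protein and not a cytokine, Cxcl10 (0.39), Il1a (0.47) and Il1rn (0.38). The median of that list was 0.175, and 0.0218 against Wistar N 1 alone. In stimulated animals 0 genes of either list were called. Of 10 other complement genes 2 were higher and 2 lower in WAR N, against 11.6% and 9.38% of all genes. These were led by Cd55 (0.93, adjusted p = 0.00447), an inhibitor of complement, and C1s (-0.57, adjusted p = 0.00605), a protease of the C1 complex.

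Markers of blood cells that share macrophage genes were low in all groups. Of 12 neutrophil and monocyte markers 1 was higher in WAR N (S100a9, 0.28, adjusted p = 0.0392), where 11.6% of all genes were higher, and 0 in WAR S. The mean level of the list lay between 5.75 and 5.80 for WAR S arrays and 5.68 and 5.73 for Wistar S arrays. It lay between 5.59 and 5.70 for WAR N arrays and 5.46 and 5.59 for Wistar N arrays. None of 13 lymphocyte markers was called in either comparison. Endothelial markers, by contrast, had mean levels of 8.06 to 8.47 in WAR S, against 7.34 to 7.39 in Wistar S, and of 7.85 to 8.43 in WAR N, against 7.07 to 8.11 in Wistar N. Nostrin, an endothelial adaptor protein, was higher in both (1.31 in WAR S and 1.37 in WAR N), as were Itm2a and Abcb1a, of which Abcb1a is the efflux pump of the blood-brain barrier. Among astrocyte markers Aldh1l1, a folate enzyme (-0.76), and Slc6a11, a GABA transporter (-0.79), were lower in WAR N, and the mean level of that list was 10.73 to 10.93 in WAR N, against 11.11 to 11.29 in Wistar N. Hbb, a hemoglobin chain, was the 1 of 5 red blood cell markers called, lower in both (-1.17 in WAR S and -0.67 in WAR N). Over all genes 29 of 14506 were lower in WAR S and 9.38% in WAR N. The median of that list was -0.585 in stimulated and -0.111 in naïve arrays, and -0.0949 against Wistar N 1 alone. The part of vessel, blood and astrocyte content in the members' differences was not tested.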

How the data were processed

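Expression was measured on 15 Affymetrix rat arrays (Gene 1.0 ST), 1 per animal per the labels. RMA, which removes background, equalizes the arrays' quantiles and summarizes probe sets, gave the log2 levels that the authors deposited; its version was not stated. The table was complete, with 0 sample columns left unused. The deposited values give no signal over background, so the number of arrays limits the precision. Of 29214 probe sets, 15310 had 1 gene symbol in the platform annotation, 323 had several and 13581 none; 15279 matched a rat gene of GRCr8 by gene ID. The brightest probe set was kept for the 527 genes with several.

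A mean per group was fitted over 15 arrays with limma 3.58.1 in R 4.3.3 (lmFit, eBayes), p-values were adjusted over 14506 genes by the method of Benjamini and Hochberg, a gene was called at 0.05 or below, and the step was tested on simulated data. The SAM algorithm named in the study's methods was not run. Members were tested over arrays by exact permutation as well. Members and gene lists were chosen with earlier results of these data known. Every member is named, with values on each array for those past the threshold and for the 3 homeostatic receptors; of other lists up to 4 called genes with the smallest p are named. Alternatives were the replicate block, the label set (running numbers in the descriptions), the arrays in the model, unequal spread, array weights, a filter on dim genes, the choice of probe set, the moderation, cyclic loess, a fold threshold of 2 with unadjusted p of at most 0.05, and leaving out each array. The fits that set Wistar N 1 apart on naïve arrays were added after seeing the data.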

Additional observations from a re-analysis of the deposited data

Results flagged for a closer look

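In 111 sets of 4 or 5 arrays (37 genes in WAR S, WAR N and Wistar N), 15 had a highest or lowest array far from the others by Dixon's criterion, against 5.55 that chance alone gives at 1 in 20. In WAR S there were 8. WAR S 3 was low for Cx3cr1 (8.36, against 9.56 to 9.89 on the other 4) and Cd53 (8.05, against 8.76 to 8.94). WAR S 4 was high for Selplg (9.67, against 9.21 to 9.22), Cd14 (7.16, with 6.83 on each other array) and Csf3r (7.29, against 6.94 to 7.04). WAR S 1 was high for Tlr2 (5.38), WAR S 5 low for Spi1 (6.73) and WAR S 2 high for Irf8 (6.87). Tied values among stimulated arrays shrink the range against which such a gap is measured.

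In WAR N there were 3: Gpr34 on WAR N 2 (8.64, against 7.98 to 8.06), Csf1r on WAR N 4 (9.53, against 8.88 to 8.99) and Fcer1g on WAR N 3 (10.45, against 9.91 to 9.97). In Wistar N there were 4, of which 3 were at Wistar N 1: C1qc (7.26, against 8.14 to 8.21), Lyz2 (8.36, against 7.48 to 7.59) and Ly86 (6.99, against 7.38 to 7.43). The other was Tmem119 on Wistar N 2 (7.31, against 7.51 to 7.54). For C1qc and Lyz2 the strain difference depends on whether Wistar N 1 is included, as the values in the report show.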

How the results depend on the processing

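In stimulated animals, where the count was 2, 1 member was called with the replicate block, 1 with only label set 1, and 1 at a fold change of at least 2 with unadjusted p of at most 0.05; 5 were called with unequal spread and 12 (11 higher, 1 lower) with array weights. Leaving out each array gave 1 to 2. In naïve animals, where the count was 14, 1 member was called with only label set 1 (in which Wistar N 4 was placed from an unclear label), 8 with unequal spread, 6 at the fold threshold, 8 against Wistar N 1 alone (5 of them among the 14) and 11 to 20 when an array was left out. In the interaction 9 members were called with array weights (23.1% of all genes), 1 at the fold threshold (1.3%), 1 against Wistar N 1 alone (3.66%), and 0 to 8 with an array left out, 8 without Wistar N 1 (20.4%). Over all genes the stimulated comparison called 60, and 16 with the replicate block, 14 with label set 1, 274 on its own arrays, 710 with unequal spread, 1433 with array weights, 39 at the fold threshold and 7 (without Wistar S 2) to 50 with an array left out. The naïve comparison called 3037, and 217 with label set 1, 879 on its own arrays, 1357 with unequal spread, 4667 with array weights, 5355 of all probe sets, 256 at the fold threshold, 4784 on naïve arrays less Wistar N 1, 1677 against Wistar N 1 alone and 1987 (without Wistar N 3) to 5968 (without Wistar N 1) with an array left out. The members' median moved by less than the spread between replicates under all alternatives that refit it (0.0707 to 0.153 in stimulated and 0.201 to 0.349 in naïve arrays with an array left out). Olfml3 in naïve animals was -0.58 against Wistar N 1 alone. The cause of these changes was not tested, beyond the smaller number of arrays in some fits.

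P2ry12 kept its call in stimulated animals under all alternatives but the fold threshold of 2; Lair1 lost it with the replicate block (adjusted p = 0.0650), with label set 1 (adjusted p = 0.0660) and without Wistar S 2. Deviations of same-numbered arrays from their group means correlated at 0.03 and -0.05 in stimulated and -0.31 to 0.06 in naïve animals. These values showed no pairing by replicate number but cannot exclude it, since the deviations of the 2 Wistar S arrays are equal and opposite. With the block 13 naïve members were called. Wistar S has 2 arrays. Itgam, Cd68, Cybb, Cd163 and Tlr2 were among the dimmest 25% of genes, where arrays resolve differences least.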
